A study of Mus musculus with 4 samples.

Results

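Interferon response and nucleic acid sensing genes were followed in mouse embryonic stem cells (ESC) treated with MS-275. The group comprised 38 named genes: interferon regulatory factors, sensors of foreign RNA and DNA with their adaptors, and genes that interferon switches on. They were chosen by symbol. Values were found for 37 of the 38 among 28250 listed genes, 36 by symbol and Ifi27 by its Entrez identifier (52668), under which it is listed as Ifi27l1. Irf9 had no value among those used here and is described from aligned reads alone.

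The cells were TBV2, a mouse ESC line that is grown on feeder cells with the cytokine LIF and plated on gelatin. The study used wild-type and EGFP-marked TBV2 cells, the labels of the sequenced cells name TBV2 without a marker, and both groups were kept in LIF. Control cells received solvent for 24 h, and treated cells received 5 µM MS-275, an inhibitor of class I histone deacetylases, for 24 h, with 2 RNA-seq libraries per group. The control alignments are labelled ETOH, whereas the study names DMSO as the vehicle of another assay, so the text says solvent. The labels do not say that the 2 libraries of a group came from separate cultures. P-values can speak only for these libraries.

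Interferons are secreted ligands. Cells that detect foreign or misplaced RNA or DNA through RIG-I-like receptors, Toll-like receptors or STING switch on interferon genes through Irf3 and Irf7, and the secreted interferon acts through its receptors, the JAK kinases and transcription factors, Stat2 and Irf9 among them, to raise antiviral effector genes. Pluripotent stem cells are known for a weak interferon response, and several effectors, the Ifitm proteins among them, are known to be made in stem cells without interferon.

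The deposited value of a gene is a normalized expression signal made with Genomatix from reads mapped to mm9, and the formula is not given in the sources used here. The summed values of a library ranged from 2490 to 4359, and the deposited alignments of 35 bases from 9785619 to 23467935. Values tracked the alignments filed under the partner replicate in the same group (Pearson's r of 0.895 to 0.929 across 10839 genes) more closely than those filed under their own name (0.762 to 0.861). Of annotated genes listed at 0, 97.5% to 98.4% had no alignments in the partner file, and 82.4% to 88.7% had none in their own. The alignment labels tag replicate 1 NEW and replicate 2 OLD, whereas the value headers name replicate 1 old. Values and positions under the same replicate number may thus come from different libraries, and which alignments belong to which replicate was not settled. Genes are not independent replicates in these correlations. An exchange within a condition leaves each group and each pair of replicates intact in the tests on positions, and replicate numbers below are those of the file a value came from. The 10 ESC markers checked were present in every library (summed values of 4.82 to 23.2). In the fit with a replicate block described below, 4 of them were called lower after MS-275 and 0 higher. The shares over all genes tested were 6.46% lower and 21.0% higher. With that block, 6 markers were lower once scaled by median ratios and 5 once quantile normalized, beside 14.1% and 13.7% of all genes. Without the block, 0 markers were called.

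Promoter sequences are shown first because some of them carry the element that interferon acts through. The interferon-stimulated response element has a core of GAAA, any 2 bases and GAAA, and interferon regulatory factors bind elements of this kind. The sequences are the 250 bases before the RefSeq start of each gene on GRCm38.p6, written on the strand of the gene, and capitals mark matches to this core on either strand (TTTC, any 2 bases and TTTC when it lies on the other strand). Cxcl10, Isg15 and Rsad2 had the largest change among the called genes with a promoter window that holds the motif. No window was available for Dhx58, Ifi27, Mx1, Mx2, Parp14, Tmem173 and Usp18, and whether they hold it is not known here. Ifit1 was added after its values were seen, as a gene with the motif and no call. For Irf8, the gene with the largest change among those called without this core, capitals mark TTC, any 3 bases and GAA, an element bound by factors of the STAT family.
Cxcl10, chr5:92348890-92349139, minus strand: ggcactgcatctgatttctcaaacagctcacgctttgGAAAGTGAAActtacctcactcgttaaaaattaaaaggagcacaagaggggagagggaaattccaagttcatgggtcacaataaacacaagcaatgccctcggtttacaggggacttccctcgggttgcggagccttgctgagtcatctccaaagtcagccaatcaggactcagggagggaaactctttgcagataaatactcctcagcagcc
Isg15, chr4:156200819-156201068, minus strand: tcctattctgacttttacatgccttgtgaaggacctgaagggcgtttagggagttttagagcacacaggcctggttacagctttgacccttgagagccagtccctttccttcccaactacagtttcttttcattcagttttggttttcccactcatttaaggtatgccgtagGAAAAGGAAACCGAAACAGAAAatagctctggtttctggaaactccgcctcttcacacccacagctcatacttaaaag
Rsad2, chr12:26456453-26456702, minus strand: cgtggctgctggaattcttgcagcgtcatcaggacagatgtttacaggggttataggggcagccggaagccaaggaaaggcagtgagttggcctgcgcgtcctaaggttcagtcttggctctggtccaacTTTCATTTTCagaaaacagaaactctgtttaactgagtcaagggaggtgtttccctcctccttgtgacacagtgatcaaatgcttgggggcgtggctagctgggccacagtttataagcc
Irf8, chr8:120736108-120736357, plus strand: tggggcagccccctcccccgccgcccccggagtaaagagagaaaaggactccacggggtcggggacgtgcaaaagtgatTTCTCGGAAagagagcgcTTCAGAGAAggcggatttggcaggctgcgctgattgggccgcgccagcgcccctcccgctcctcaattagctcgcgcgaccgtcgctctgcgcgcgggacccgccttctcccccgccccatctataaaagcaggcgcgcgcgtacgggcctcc
Ifit1, chr19:34640639-34640888, plus strand: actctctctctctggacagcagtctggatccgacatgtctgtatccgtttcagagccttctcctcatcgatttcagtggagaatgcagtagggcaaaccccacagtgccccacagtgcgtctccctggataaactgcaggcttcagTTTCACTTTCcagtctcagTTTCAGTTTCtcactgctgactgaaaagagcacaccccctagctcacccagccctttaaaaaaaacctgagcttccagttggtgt

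The motif of Cxcl10 began 213 bases before the start and that of Rsad2 began 120 bases before it. Isg15 held 3 overlapping matches in 1 run that began 78 bases before the start, and Ifit1 held 2 matches, which began 104 and 85 bases before it. Of 31 genes of the group with a promoter window, 11 held the core, whereas 2.98% of all 32851 windows and 3.46% of 27025 genes did. By call with the block, described below, these were 5 of 10 genes called higher, 0 of 2 called lower and 6 of 18 not called. Irf9, without a value, did not hold it. The group was chosen as interferon genes, so its contrast with all genes does not speak to the change after MS-275. The STAT element, which reads the same on both strands, stood in 6 of the 31, and in 7.02% of all windows and 8.13% of genes. A match is a run of letters in this window and not a measured binding site.

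Log2 fold changes are MS-275 minus solvent on log2(value + 0.005), a scale that understates the change of low genes. They were tested with limma over the 20336 genes that reached 0.001 in at least 2 libraries, and the 37 genes of the group with values passed this minimum, Ifi44 through its MS-275 libraries alone. Without a replicate block, limma called 0 of the 37 higher and 0 lower (0.00492% and 0.00% of all genes), while an unadjusted p under 0.05 was reached by 10 rises and 1 fall in the group and by 2974 and 564 among all genes. With the replicate number as a block, limma called 14 higher and 2 lower, and 21 were not called. Over all genes tested, 21.0% were called higher and 6.46% lower in that fit. Calls below are from the fit with the block and a Benjamini-Hochberg adjusted p under 0.05, and no gene of the group passed without it. The fit without a block was the planned one, and the block was its alternative. With the block, a p-value measures the spread left once the replicate offset of the gene is removed. With 4 libraries little of that spread can be measured, and limma leans on the variance shared over all genes tested. Genes whose groups overlapped, such as Ifi27, can therefore be called. In bulk libraries, fewer cells of a type and less RNA per cell cannot be told apart.

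The split of the calls moved with the scaling of the libraries. Median-ratio scaling with the block gave 10 higher and 7 lower, beside 16.6% and 14.1% of all genes. Quantile normalization with the block gave 11 higher and 6 lower, beside 13.8% and 13.7% of all genes. The median log2 fold change of the 37 genes was 0.44 as deposited, 0.38 once scaled by median ratios and 0.14 once quantile normalized, and that of all genes tested was 0.20, -0.01 and -0.03. Of the 16 called genes, 12 kept their call and direction with median ratios, and 12 did so once quantile normalized. These were not the same 12: Stat2 lost its call only with the first scaling and Ifih1 only with the second. The like share over all genes called was not counted.

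**Figure D1:**
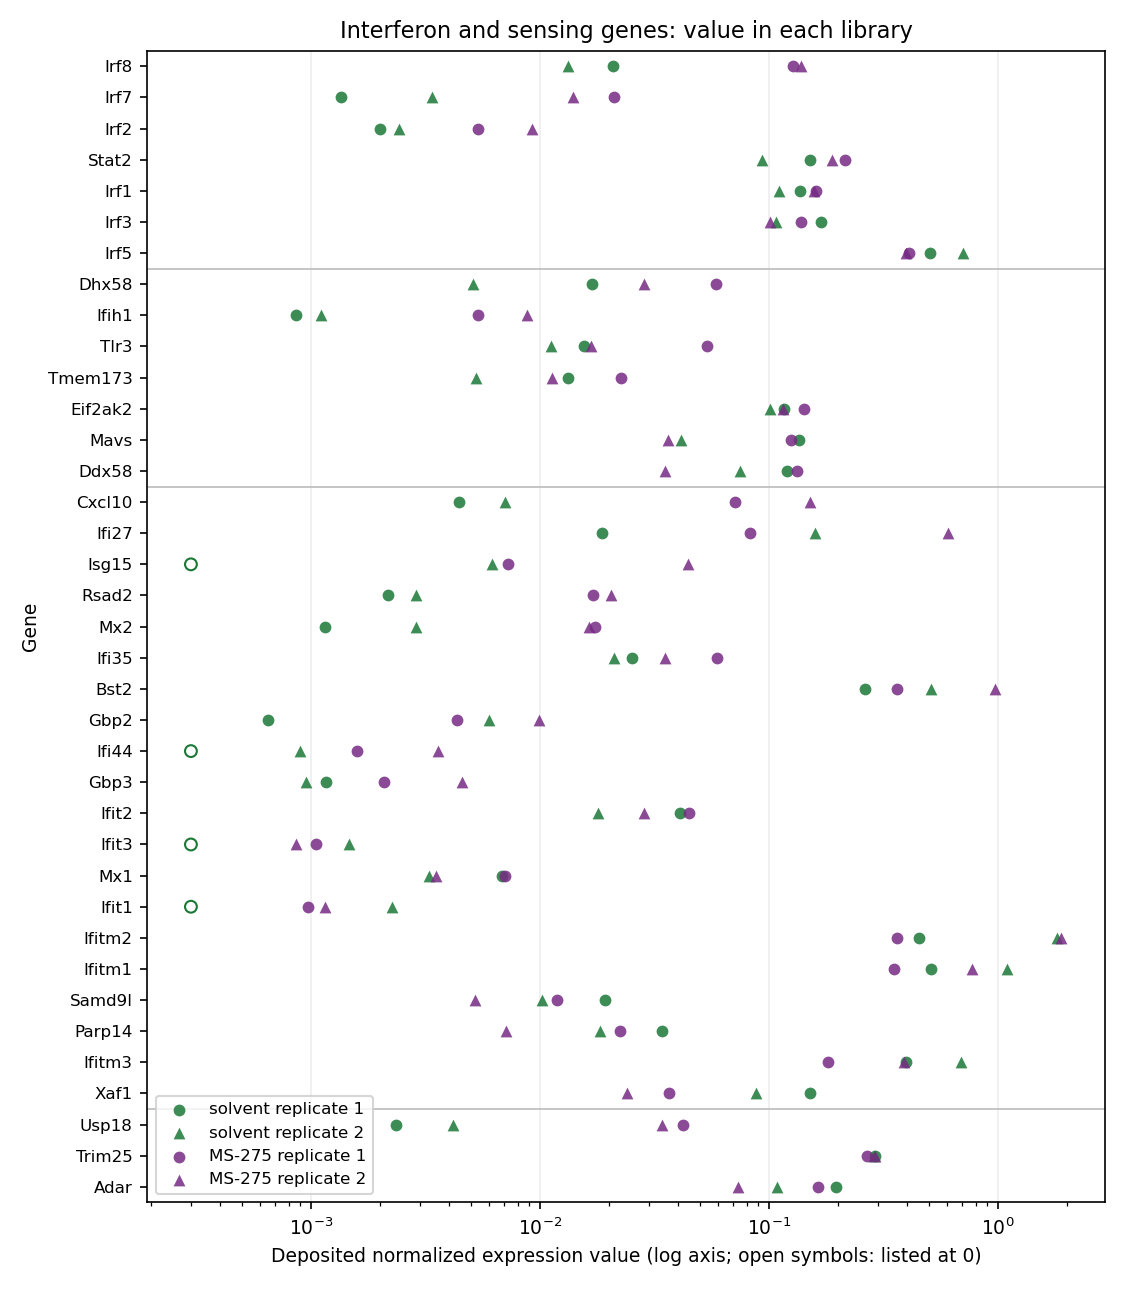
Deposited normalized expression value (x, log axis) of 37 interferon and sensing genes (y) in each library. Green symbols are solvent and purple symbols MS-275, circles replicate 1 and triangles replicate 2; open symbols mark a listed value of 0, and grey lines separate factors, sensors, effectors and regulators. Cxcl10 lies at 0.00442 and 0.00706 with solvent and at 0.0709 and 0.150 with MS-275, whereas the 4 values of Trim25 lie between 0.268 and 0.292.

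Among the signalling components and transcription factors, 4 of 7 genes with values were called higher and none lower, beside 21.0% and 6.46% of all genes. The counts were 2 and 1 after median-ratio scaling and 3 and 1 after quantile normalization. Irf8, a factor known from myeloid cells that binds with partners to response elements, had deposited values of 0.0209 and 0.0132 in solvent replicates 1 and 2 and of 0.127 and 0.139 in MS-275 replicates 1 and 2. Irf7, the factor that amplifies interferon transcription, had values of 0.00136 and 0.00340 with solvent and of 0.0211 and 0.0140 with MS-275. In both genes the lowest MS-275 value lay above the highest solvent value. The log2 fold change of Irf8 was 2.66 (standard error 0.28, limma adjusted p = 9.21e-06 with the block and 0.0600 without it), and that of Irf7 was 1.61 (standard error 0.30, adjusted p = 0.000980 and 0.105). From 9.76% to 80.0% of the distinct alignment positions on Irf7 exons fell on 45 bases shared with Phrf1, and these were left out of its count.

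Stat2, the transducer that joins Irf9, had values of 0.151 and 0.0935 with solvent and of 0.214 and 0.190 with MS-275. Irf2, a factor that competes with Irf1 for response elements, had values of 0.00200 and 0.00243 with solvent and of 0.00538 and 0.00924 with MS-275. Their groups did not overlap either, and the log2 fold changes were 0.74 for Stat2 (limma adjusted p = 0.0245 with the block and 0.402 without it) and 0.75 for Irf2 (0.0361 and 0.270). Both calls were lost with the block after median-ratio scaling (adjusted p = 0.134 for Stat2 and 0.0532 for Irf2 by limma), and that of Irf2 also after quantile normalization (0.367). Without solvent replicate 2 the change of Stat2 was 0.40. Irf1 (0.36), Irf3 (-0.18) and Irf5 (-0.56) were not called.

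Irf9 was measured on aligned reads alone. It had 332 and 261 distinct alignment positions on exons in the files of solvent replicates 1 and 2 and 207 and 201 in those of MS-275. The MS-275 counts lay below both solvent counts, and the log2 fold change was -0.45 (limma-voom adjusted p = 0.0415 with the block and 0.212 without it).

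In the sensors and adaptors, 3 of 7 genes were called higher and none lower, beside 21.0% and 6.46% of all genes. Median-ratio scaling gave 2 higher and 1 lower, and quantile normalization 1 and 0. Dhx58, which encodes LGP2, a RIG-I-like receptor without a signalling domain, had values of 0.0169 and 0.00512 with solvent and of 0.0589 and 0.0286 with MS-275. Ifih1, which encodes the long-RNA sensor MDA5, had values of 0.000860 and 0.00111 with solvent and of 0.00537 and 0.00878 with MS-275. Neither gene overlapped between the groups. The log2 fold change was 1.64 for Dhx58 (standard error 0.31, limma adjusted p = 0.00103 with the block and 0.261 without it) and 0.998 for Ifih1 (standard error 0.24, adjusted p = 0.00602 and 0.111). The change of Dhx58 was 1.08 without solvent replicate 2 and 1.17 without MS-275 replicate 1. The call of Ifih1 was lost with the block after quantile normalization (limma adjusted p = 0.0618).

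Tlr3, the endosomal receptor for double-stranded RNA, had values of 0.0156 and 0.0112 with solvent and of 0.0537 and 0.0168 with MS-275. The lowest MS-275 value lay just above the highest solvent value, and the log2 fold change was 1.51 in replicate pair 1 and 0.42 in pair 2. Its mean change of 0.97 had an adjusted p of 0.0419 with the block by limma, which became 0.0935 with median-ratio scaling and 0.341 with quantile normalization. Without MS-275 replicate 1 the change was 0.25, and without MS-275 replicate 2 it was 1.68.

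The other 4 genes of the sensing arm did not pass. These were Ddx58, which encodes RIG-I (log2 fold change -0.42), Mavs, the mitochondrial adaptor of the RIG-I-like receptors (-0.14), Tmem173, which encodes STING (0.63), and Eif2ak2, which encodes the RNA-activated kinase PKR (0.24, and -0.04 after median-ratio scaling). Ddx58 changed by 0.13 in pair 1 and by -0.98 in pair 2, and the signs of Ddx58 and Mavs turned when MS-275 replicate 2 was left out. The 3 RIG-I-like receptors thus had log2 fold changes of 1.64, 0.998 and -0.42, and the differences between them were not tested.

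Of 20 effectors, 6 were called higher and 2 lower, beside 21.0% and 6.46% of all genes. With median-ratio scaling these were 5 and 4, and with quantile normalization 6 and 5. Cxcl10, a chemokine that attracts T cells, changed most in the group, from 0.00442 and 0.00706 in solvent replicates 1 and 2 to 0.0709 and 0.150 in MS-275 replicates 1 and 2. The group means were 0.00574 ± 0.00187 and 0.111 ± 0.0563 (SD, n = 2 each), a ratio of 19.3. Its log2 fold change was 3.35 (standard error 0.31, limma adjusted p = 3.30e-06 with the block and 0.0600 without it), and it was 3.01 and 3.69 in the replicate pairs. On the exons, 16.7% to 30.0% of its positions lay on 133 bases shared with Art3, which were left out of its count.

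Mx2, a dynamin-like GTPase, had values of 0.00115 and 0.00287 with solvent and of 0.0174 and 0.0163 with MS-275. Rsad2, which encodes the radical-SAM enzyme viperin, had values of 0.00217 and 0.00288 with solvent and of 0.0170 and 0.0204 with MS-275. In both genes every MS-275 value stood above every solvent value by more than the distance between replicates. Their log2 fold changes were 1.65 for Mx2 (limma adjusted p = 0.000493 with the block and 0.0863 without it) and 1.66 for Rsad2 (0.000514 and 0.0986).

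Isg15, a ubiquitin-like protein joined to other proteins, was listed at 0 and at 0.00620 in solvent replicates 1 and 2 and at 0.00727 and 0.0443 in MS-275 replicates 1 and 2. Ifi27, a small membrane protein, had values of 0.0186 and 0.159 with solvent and of 0.0828 and 0.606 with MS-275. In both genes replicate 2 stood above replicate 1 in each condition, and the groups of Ifi27 overlapped although both pairs rose alike (log2 fold change of 1.89 and 1.90). The mean change was 1.72 for Isg15 (limma adjusted p = 0.000659 with the block and 0.241 without it) and 1.89 for Ifi27 (2.57e-05 and 0.381). Leaving out 1 library of a pair moved both: Ifi27 was at 0.50 without solvent replicate 1, 3.29 without solvent replicate 2, 3.29 without MS-275 replicate 1 and 0.49 without MS-275 replicate 2, and Isg15 was at 1.13, 2.30, 2.72 and 0.71 in the same order. Ifi35, an interferon-induced leucine zipper protein, had values of 0.0253 and 0.0211 with solvent and of 0.0592 and 0.0352 with MS-275, with no overlap. The change of Ifi35 was 0.85 (limma adjusted p = 0.0422 with the block), and the call was lost once values were scaled by median ratios (0.140) or quantile normalized (0.272). Without MS-275 replicate 1 it was 0.52.

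Xaf1, a pro-apoptotic partner of the inhibitor XIAP, fell. It had values of 0.151 and 0.0874 in solvent replicates 1 and 2 and of 0.0367 and 0.0240 in MS-275 replicates 1 and 2, with both MS-275 values below both solvent values. Its log2 fold change was -1.79 (standard error 0.26, limma adjusted p = 0.000121 with the block and 0.114 without it), and it ranged from -2.17 to -1.41 with each library left out in turn. Ifitm3, a membrane protein that blocks virus entry, had values of 0.396 and 0.690 with solvent and of 0.181 and 0.389 with MS-275. The MS-275 values of Ifitm3 lay below both solvent values, at 0.389 against 0.396 for the nearest pair, and the change was -0.96 (standard error 0.24, limma adjusted p = 0.00654 with the block and 0.408 without it). It was -0.57 without solvent replicate 2, -0.42 without MS-275 replicate 1 and -1.51 without MS-275 replicate 2.

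Its neighbours in the cluster on chromosome 7 did not pass. Ifitm1 had values of 0.508 and 1.09 with solvent and of 0.352 and 0.771 with MS-275. Ifitm2 had values of 0.451 and 1.81 with solvent and of 0.363 and 1.89 with MS-275. Replicate 2 was the higher library in both conditions for these genes, and the groups overlapped. The log2 fold changes were -0.51 for Ifitm1 (limma adjusted p = 0.163 with the block) and -0.12 for Ifitm2 (0.795), and the differences from Ifitm3 were not tested. The coding parts of the Ifitm genes are alike, and how reads that fit more than 1 of them were handled is not given in the sources used here, so that their values may share reads.

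Bst2, which encodes tetherin, a protein that holds budding virus at the cell surface, had values of 0.264 and 0.512 with solvent and of 0.364 and 0.972 with MS-275. Its groups overlapped, and its log2 fold change was 0.69 (limma adjusted p = 0.0525 with the block), which passed with the block after quantile normalization. Ifit1, Ifit3 and Ifi44 were listed at 0 in solvent replicate 1, and no value of these 3 genes reached 0.005 in any library. The Ifit1 promoter shown above holds the same motif as that of Isg15, and Ifit1 had values of 0.00226 in solvent replicate 2 and of 0.000970 and 0.00115 with MS-275. Mx1 stayed between 0.00329 and 0.00706 in all 4 libraries (log2 fold change 0.03), whereas its paralog Mx2 was called, a difference that was not tested. The changes of Ifit1, Ifit2, Ifit3 and Mx1 were below 0 after quantile normalization, at -0.37, -0.06, -0.27 and -0.45. The log2 fold changes of the other effectors without a call were 0.33 for Ifit2, 0.58 and 0.44 for the guanylate-binding GTPases Gbp2 and Gbp3, -0.72 for the ADP-ribosyltransferase Parp14 and -0.56 for Samd9l.

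Usp18 was called among the 3 genes placed as regulators and RNA editing enzymes. It encodes the protease that removes Isg15 from proteins and dampens signalling at the interferon receptor. Usp18 had values of 0.00235 and 0.00417 with solvent and of 0.0421 and 0.0343 with MS-275, and the lowest MS-275 value was far above the highest solvent value. Its log2 fold change was 2.39 (standard error 0.31, limma adjusted p = 5.68e-05 with the block and 0.0770 without it). Trim25, the ubiquitin ligase that acts on RIG-I, had values of 0.292 and 0.287 with solvent and of 0.268 and 0.290 with MS-275, with overlapping groups and a change of -0.05. Adar, which edits adenosine in double-stranded RNA, was not called either (-0.40).

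**Figure D2:**
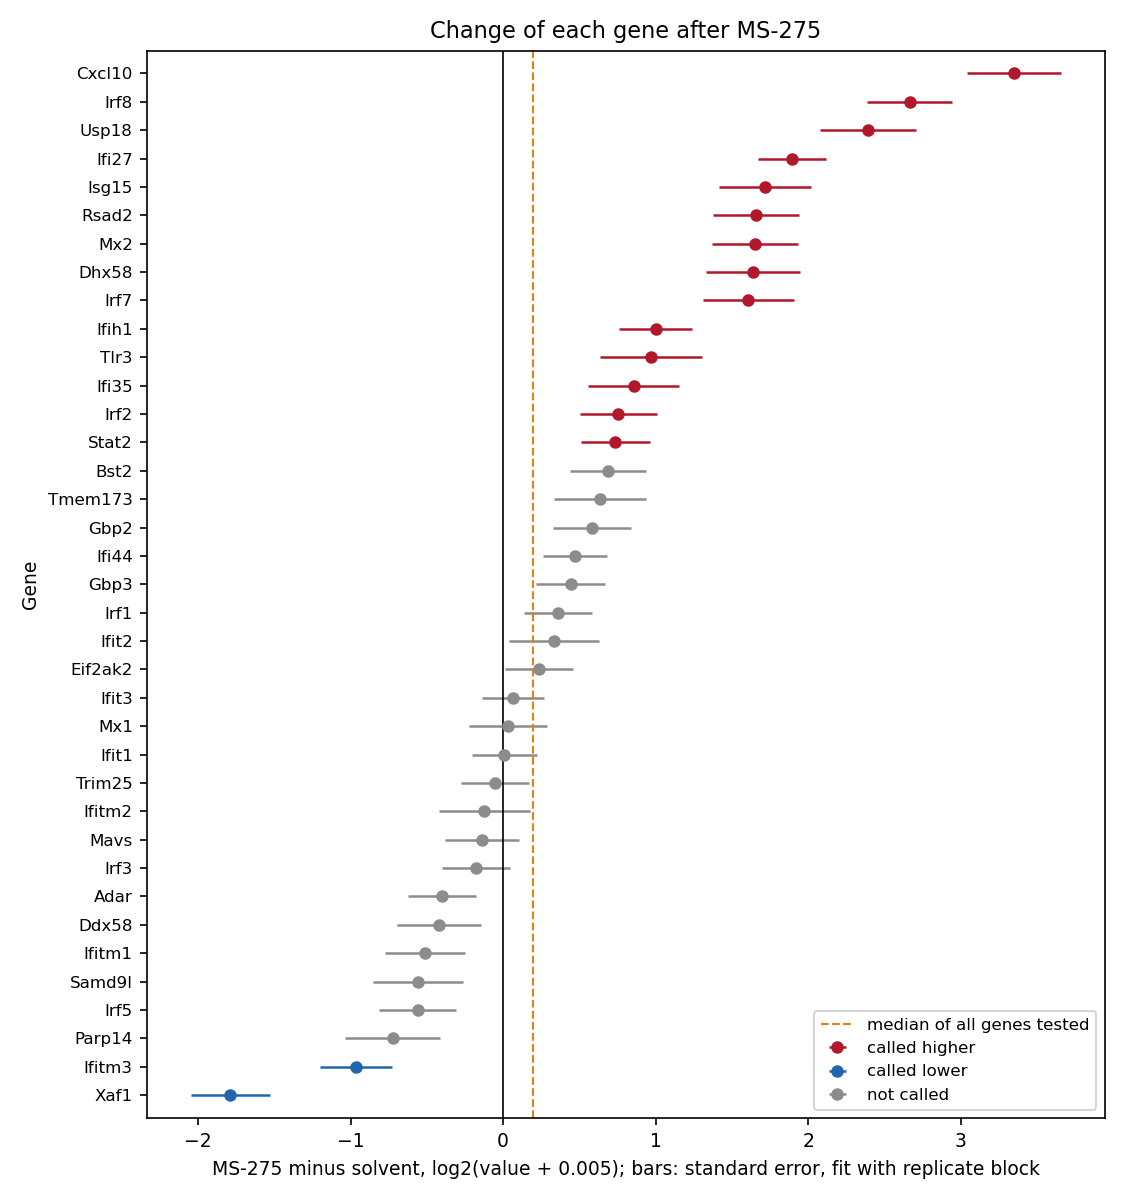
Log2 fold change of 37 genes (x, MS-275 minus solvent on log2(value + 0.005); y, gene), with bars for the standard error in the fit with the replicate block. Red marks the 14 genes called higher, blue the 2 called lower and grey the 21 not called, and the dashed line is the median of all genes tested (0.20); Cxcl10 stands at 3.35 and Xaf1 at -1.79.

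Across the 37 genes, 25 log2 fold changes were above 0 and 12 below. In 16 genes both MS-275 values were above both solvent values (32.3% of all genes tested), and in 3 genes both were below (12.0%). The 21 genes not called ranged from -0.72 to 0.69. By a rule of at least 2-fold in both replicate pairs, with values under 0.001 set to 0.001 and no test, 11 genes were higher and 1 lower, beside 11.5% and 2.04% of all listed genes. The 28250 listed genes include 4500 at 0 in every library, which cannot pass this rule, and none of the 37 was among these. The share over the 20336 genes tested was not counted.

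**Figure D3:**
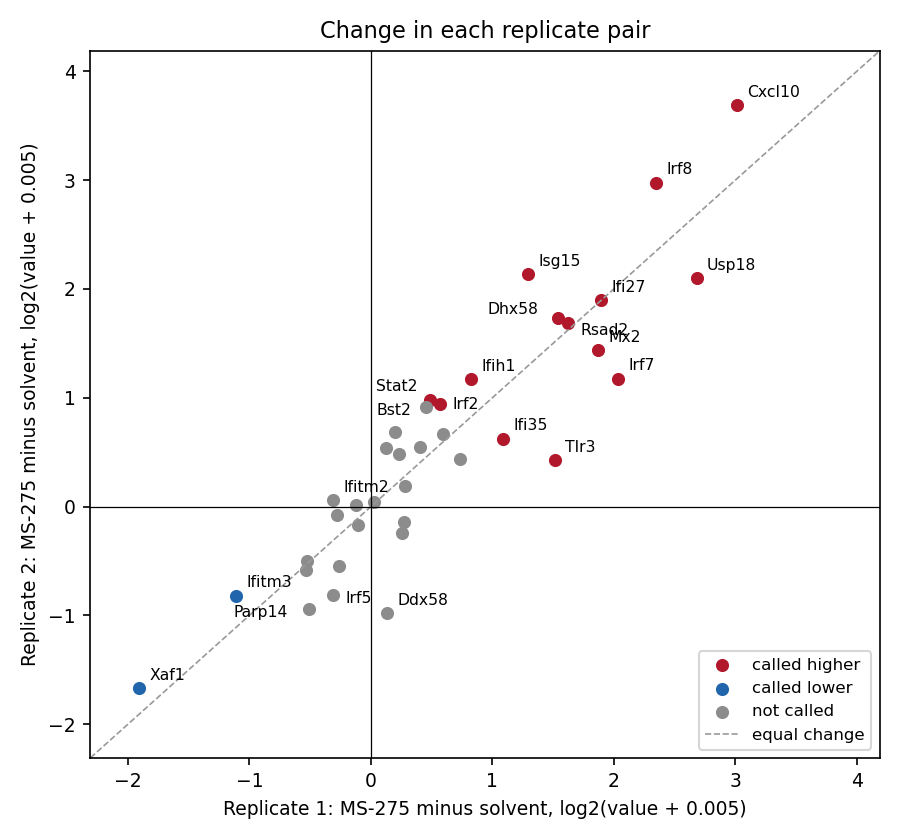
Log2 fold change of each gene in replicate pair 1 (x) and pair 2 (y), both as MS-275 minus solvent on log2(value + 0.005); colours give the call in the fit with the block, and the dashed line marks equal change. The called genes lie on the same side of 0 in both pairs, and Ddx58 lies at 0.13 in pair 1 and -0.98 in pair 2.

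Levels with solvent spanned a wide range. The 6 genes with the highest mean solvent values were Ifitm2 (1.13), Ifitm1 (0.801), Irf5 (0.604), Ifitm3 (0.543), Bst2 (0.388) and Trim25 (0.289), and the spread between replicates of Ifitm2 (SD 0.963) exceeded its distance to the next genes. Counted per 1000000 distinct positions on exons and per kilobase of unshared exon, the order with solvent was Ifitm2 (71.7), Ifitm3 (60.6), Bst2 (53.4), Ifitm1 (47.2), Trim25 (40.6) and Adar (23.0), while Irf5 stood at 1.04. Neither order was tested. After MS-275 the mean value of Cxcl10 was 0.111, near those of Irf3 (0.119) and Adar (0.118), and with solvent it had been the 24th of 37.

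The calls were set beside those of genes with like solvent levels. Of 15 genes with a mean solvent value under 0.01, 8 were called higher and none lower, where 34.4% and 1.04% of all genes at that level were. From 0.01 to 0.1, 5 of 10 were called higher and none lower, beside 22.8% and 6.37% of all genes. At 0.1 or more, 1 of 12 was called higher (Stat2) and 2 lower (Xaf1 and Ifitm3), beside 7.27% and 11.5% of all genes.

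Distinct alignment positions on exons gave a second measure from the same libraries. Limma-voom on positions without a block called 8 of 34 genes higher and 1 lower (15.4% and 5.19% of 16783 genes). The 8 were Irf7, Irf8, Dhx58, Tlr3, Mx2, Rsad2, Cxcl10 and Usp18, and the gene that fell was Xaf1. Cxcl10 reached the minimum of 10 positions in the MS-275 files alone, so that its test on positions could hardly come out other than as a rise. With the block the counts were 17 higher and 6 lower, beside 29.8% and 14.0% of all genes tested. Of the 15 genes called by their values other than Cxcl10, 15 were called in the same direction by positions with the block, and 8 without it. The like share over all genes called by their values was not counted. Both measures share the libraries and the block, so this agreement is not an independent check. Called by positions with the block and not by values were Irf5, Irf9, Bst2, Gbp2, Parp14, Samd9l and Adar.

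The counts behind some large fold changes were small. Cxcl10 had 7 and 3 distinct positions in the files of solvent replicates 1 and 2 and 70 and 47 in those of MS-275. Isg15 had 10 and 0 positions with solvent and 48 and 6 with MS-275. Irf8 had 80 and 61 with solvent and 468 and 422 with MS-275, and Xaf1 had 392 and 420 with solvent and 100 and 113 with MS-275. The log2 fold changes over positions with the block were 3.56 for Cxcl10, 2.76 for Isg15, 2.74 for Irf8 and -1.87 for Xaf1.

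Irf5 differed in direction between the measures. Its deposited values were 0.507 and 0.701 with solvent and 0.407 and 0.398 with MS-275, a log2 fold change of -0.56 (limma adjusted p = 0.114 with the block). Its exon positions outside other genes were 16 and 19 with solvent and 33 and 65 with MS-275, a log2 fold change of 1.47 (limma-voom adjusted p = 0.00233 with the block and 0.0550 without it). Another 411 exon bases of Irf5 are shared with Tnpo3 on the opposite strand. Those bases held 283 and 248 positions with solvent and 198 and 225 with MS-275, from 77.6% to 94.6% of all positions on Irf5 exons. The protocol names no strand-specific step, and reads of the overlapping genes were not told apart there.

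**Figure D4:**
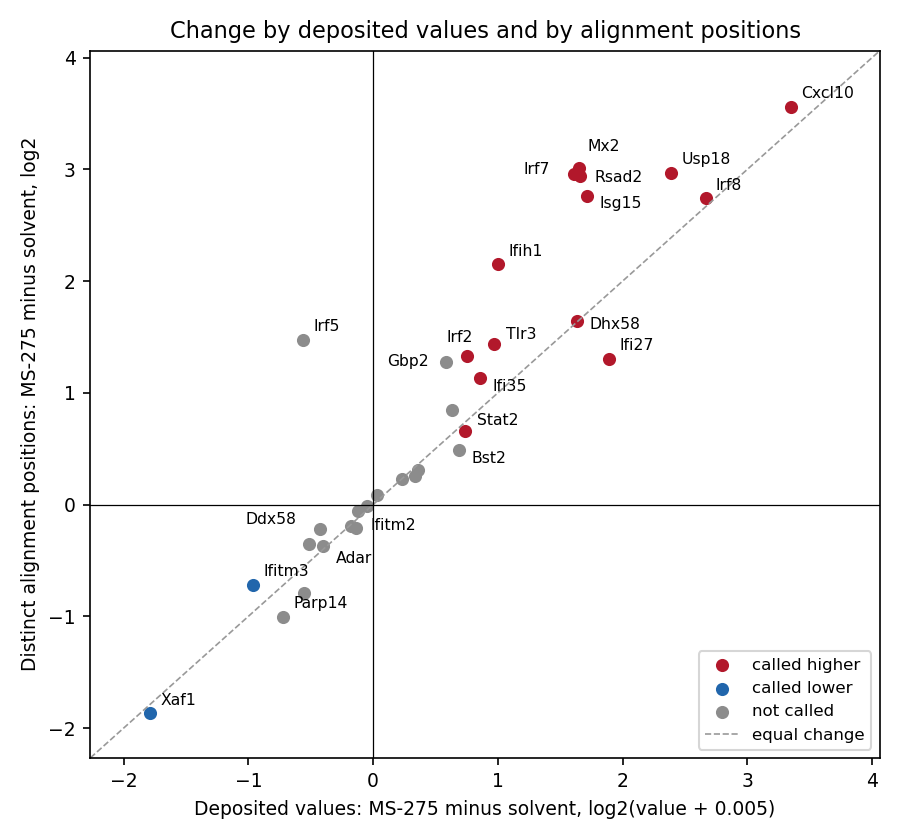
Log2 fold change of 33 genes by deposited values (x, log2(value + 0.005)) and by distinct alignment positions (y, fit with the replicate block), coloured by the call on values; the dashed line marks equal change. Irf5 lies at -0.56 by values and 1.47 by positions, and genes with low solvent values such as Mx2 (1.65 and 3.01) lie above the line.

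The other genes of the pathway were taken from 4 lists. The ligand list held 21 interferon genes, of which 15 were listed at 0 in all 4 libraries and 2 passed the minimum value. Ifna13, a type I interferon, was listed at 0 in both solvent libraries and at 0.00783 and 0.00366 with MS-275, with 0 and 0 positions in the solvent files and 5 and 7 in the MS-275 files. Ifnk, a type I interferon of keratinocytes, had values of 0.00249 and 0.000520 with solvent and of 0.00782 and 0.00305 with MS-275. Ifnk was called higher with the block by limma (adjusted p = 0.0464) and not without it (0.332). Ifna13 reached the minimum value in the MS-275 libraries alone and could only come out as higher, so that its call with the block (limma adjusted p = 0.00278, and 0.0782 without it) adds nothing to its values. Neither had enough positions to be tested on them. Ifnb1 had 0 positions in each file. The Ifna genes are near-identical copies, and their reads may be assigned to the wrong copy.

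Of 15 receptors and signal transducers tested, 6 were called higher with the block and none lower, beside 21.0% and 6.46% of all genes. After median-ratio scaling the counts were 3 and 1. Socs1, the feedback inhibitor of JAK kinases, had values of 0.00754 and 0.0105 with solvent and of 0.0743 and 0.143 with MS-275 (log2 fold change 2.96, limma adjusted p = 6.99e-06 with the block and 0.0645 without it). Jak2, a kinase of the receptor for interferon gamma and of LIF signalling, had values of 0.0349 and 0.0190 with solvent and of 0.0985 and 0.0459 with MS-275. The change of Jak2 was 1.23 (limma adjusted p = 0.00404 with the block), and neither gene overlapped between the groups. The other 4 called were Jak1 (0.65), Ifnar1 (0.74), Ifngr1 (0.94) and Socs3 (0.98).

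Of 25 other sensors and adaptors tested, 4 were called higher and 1 lower, beside 21.0% and 6.46% of all genes, and quantile normalization gave 2 and 3. The largest rises were in Irf4 (1.44, from 0.00273 and 0.000600 to 0.0181 and 0.00880), a factor of lymphocytes, and Nlrc5 (1.32, from 0.0101 and 0.0101 to 0.0377 and 0.0284), a transactivator of MHC class I genes. The gene that fell was Rnaseh2b (-0.64, from 0.347 and 0.276 to 0.251 and 0.154), a subunit of the nuclease that removes RNA from DNA. Of 34 other interferon-stimulated genes tested, 6 were called higher and 3 lower, beside the same shares of all genes, and quantile normalization gave 4 and 7. Ube2l6, the conjugating enzyme of Isg15, rose by 2.50 (from 0.00894 and 0.00621 to 0.112 and 0.0379), and Herc6, the Isg15 ligase of the mouse, by 2.10 (from 0.00839 and 0.00667 to 0.0520 and 0.0451). Tor3a, an ATPase of the endoplasmic reticulum, fell by 1.29 on the log2 scale (from 0.216 and 0.0988 to 0.103 and 0.0305). Dtx3l, the ubiquitin ligase that partners Parp9, fell by 1.03 (from 0.0433 and 0.0452 to 0.0194 and 0.0186). Over these 4 lists, 18 of 76 genes were called higher and 4 lower with the block, and 0 and 0 without it (10 and 0 at an unadjusted p under 0.05). The shares over all genes were 21.0% and 6.46% with the block. Ifna13 and Sp110, among the 18, passed the minimum value through MS-275 alone. The median log2 fold change was 0.25, beside 0.20 over all genes. Quantile normalization with the block gave 12 and 10, beside 13.8% and 13.7% of all genes.

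Genes of the Isg15 conjugation route stood in both collections. Isg15, Usp18, Ube2l6 and Herc6 had log2 fold changes of 1.72, 2.39, 2.50 and 2.10. All were called higher with the block, also after quantile normalization, where 21.0% and 13.8% of all genes were. These genes were put side by side after their values were seen, and the route was not surveyed as a whole. Uba7, also of this route, had no value among those used here.

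Markers of other cell types that the culture could hold were summed beside these results. The fibroblast list, for feeder cells, had 6 of 10 genes called higher with the block and none lower (21.0% and 6.46% of all genes), 5 and 1 after median-ratio scaling and 4 and 2 after quantile normalization. Its summed values were 0.376 and 0.514 in solvent replicates 1 and 2 and 0.686 and 0.903 in MS-275 replicates 1 and 2. Of the blood and immune list, 1 of 8 tested genes was called higher (Cd74, the invariant chain, log2 fold change 3.69) and 1 lower (Cd3e, -1.09), and its summed values were 0.264 and 0.197 with solvent and 0.437 and 0.372 with MS-275. Ptprc and Lyz2 of this list were at 0 in both solvent libraries and at no more than 0.00433 with MS-275. Of the 10 genes of the list, 5 were under 0.01 in every library, and the others reached 0.01 in some library. The part of other cells in the changes of Cxcl10, Irf8 and the other genes was not tested.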

How the data were processed

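RNA-seq was analysed in 4 libraries, 2 per group, grouped by their titles and agent labels. As deposited by the authors, the signal of each of 28250 genes is a Genomatix normalized expression value on mm9, and the aligner, version and formula are not given in the sources used here. A value does not show the depth behind it. For each library the authors also deposited the alignments and a shorter table of genes at 0.001 or more, and for each replicate pair a table of their own ratios, which was not used. The alignments are 35 bases long, and 53.2% and 54.4% of the alignments deposited with replicate 1 of solvent and MS-275 repeated a position, against 0% with replicate 2.

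Values were tested as log2(value + 0.005) with limma 3.58.1 (lmFit and eBayes with a trend) in R 4.3.3, two-sided, with Benjamini-Hochberg adjustment over 20336 genes. Tables were handled in Python 3.11.15. The authors' headers name replicate 1 of both conditions old, and gene deviations from the mean of each group had r = 0.764 between libraries sharing a replicate number, so the pairing was taken as a block beside the fit without it. Distinct alignment positions on exon bases of a single GENCODE M1 gene were tested with limma-voom (at least 10 in at least 2 libraries), and coordinates on mm9 and bases shared between genes come from that annotation. Promoter windows came from RefSeq and protein sequences were not used here. The steps were tested on simulated data built from the fit with the block, with its replicate offsets and the noise it left. Of 200 changes of 2 on the log2 scale put into 20336 genes, the fit with the block recovered 99%, with 8 false calls. The fit without it recovered 0%, with 0 false calls. This setting favours the fit with the block. The changes were put only into genes with higher values than low called genes such as Irf7, Isg15 and Usp18. Recovery at such low values was not tested. Whether the block is right for the deposited values was not tested there.

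The genes and lists were chosen with earlier results of these data known. Named with their value in every library were the called genes, the 6 with the highest mean solvent values and, of each other list, the 2 largest rises and falls among the called. Ifit1, Irf9, Sp110 and the genes of the Isg15 route were named after their values were seen. Of the other lists, 102 of 113 entries had values. Alternatives were the block, other pseudocounts (0.001, 0.02), no filter, a minimum mean of 0.01, median-ratio scaling, quantile normalization, positions, other limits of the fold rule, and single libraries left out in turn.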

Additional observations from a re-analysis of the deposited data

How the results depend on the processing

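Without a block the counts of called genes were 0 higher and 0 lower in the group and 0 and 0 in the other pathway lists, also with pseudocounts of 0.001 and 0.02, no filter, median-ratio scaling or quantile normalization. Since limma without a block called 1 of 20336 genes in all, these counts of 0 are no sign of stability. A mean value of at least 0.01 without a block gave 4 higher in the group (Irf8, Rsad2, Cxcl10 and Usp18) and 1 in the other lists. Rsad2, Cxcl10 and Usp18 had mean solvent values of 0.0025, 0.0057 and 0.0033 and reached this minimum only through MS-275. Their calls with this minimum, with or without the block, could hardly come out other than as higher. The pairing by replicate moved the counts: with the replicate block they were 14 higher and 2 lower, and 18 and 4 in the other lists. With the block and median-ratio scaling these were 10, 7, 14 and 8 in that order, with the block and quantile normalization 11, 6, 12 and 10, with the block and a pseudocount of 0.001 12, 2, 18 and 3, with a pseudocount of 0.02 12, 2, 16 and 4, and with a minimum mean of 0.01 10, 2, 12 and 3. Distinct positions gave 8, 1, 13 and 3 without and 17, 6, 24 and 11 with the block. Shares over all genes were not counted for the fits with other pseudocounts or a minimum mean. The median of the group was 0.69 with a pseudocount of 0.001, 0.22 with 0.02 and 0.14 after quantile normalization, with or without the block, against 0.44. By the fold rule, 5 genes rather than 11 were higher with values under 0.01 set to 0.01, and the genes lower numbered 4 at 1.5-fold, 2 with median-ratio scaling and 3 with quantile normalization rather than 1. The like shares over all genes were not counted for these settings of the rule.

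With each library left out in turn, the median of the group ranged from 0.35 to 0.47. Such a fit leaves a lone library in a group, which is assumed to vary like the other group, and leaves the replicates unbalanced. The sign turned for 12 of the 37 genes with a library left out and for 6 under the other alternatives (Irf5, Eif2ak2, Ifit1, Ifit2, Ifit3 and Mx1), 14 genes in all and none of the 16 called with the block. Irf5 was at 1.48 over positions without and 1.47 with the block. Eif2ak2 turned after median-ratio scaling, Ifit2 after quantile normalization, Ifit3 and Mx1 after both, and Ifit1 after both and with a pseudocount of 0.02. Left out in turn, the libraries gave from -0.0165 (without MS-275 replicate 2) to 1.39 for Bst2, from -0.109 to 0.00541 (without MS-275 replicate 1) for Trim25, from -1.07 to 0.0473 for Ifitm1 and from -1.31 to 1.06 for Ifitm2. The positive values of Ifitm1 and Ifitm2 were those without solvent replicate 2 (0.0369 and 0.873) and without MS-275 replicate 1. The sign also turned for Irf3, Mavs and Adar without solvent replicate 1 or MS-275 replicate 2, for Ddx58 without MS-275 replicate 2, for Ifit1 and Ifit3 without solvent replicate 1, for Ifit2 without solvent replicate 2, and for Mx1 without solvent replicate 2 or MS-275 replicate 1. The cause of these shifts was not tested. Depth limits low genes most: Irf7 had 11 and 1 positions in the solvent files, and Ifih1 had 12 and 1.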
